A study of Mus musculus with 3 samples.

Results

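The replication-type histone genes of the mouse were followed through single-nucleus RNA counts of brain neurons. The members were all gene symbols of the count table that start with Hist1h, Hist2h, Hist3h or Hist4, which gave 67 of 32285 genes. They comprise 6 genes of the linker histone H1, 18 of H2A, 18 of H2B, 12 of H3 and 13 of H4. Their levels were compared between nuclei with high Hspa8, nuclei with high p53 targets and the remaining nuclei, and across the total number of unique molecular identifiers (UMIs) per nucleus.

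The nuclei were sorted from brains of C57BL/6 mice without injury. A retrograde tracer had marked neurons whose axons reach the lumbar spinal cord. All nuclei share this labelling and no unlabelled group was analysed here. The sources used here name neither the tracer nor the age and sex of the mice or the number of animals per library. There were 3 libraries, labelled biological replicates 1, 2 and 3 of 1 group, prepared from frozen dissected tissue by sorting nuclei and droplet sequencing. A minimum of 1000 genes per nucleus and a maximum of 5% mitochondrial UMIs left 2679, 2769 and 3579 nuclei with medians of 8270, 19493 and 14388 UMIs. Since nothing says whether the libraries come from separate animals, the tests below measure only the spread between these 3 libraries.

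Groups of nuclei were selected on measured levels of other genes, as CPM, a gene's UMIs scaled to a common total per nucleus. The level of a group is the CPM of its UMIs summed per library, so nuclei with many UMIs weigh more in it. Hspa8 barcodes had at least 600 CPM of Hspa8, a constitutive chaperone of the Hsp70 family. They numbered 91, 73 and 42. The p53 target barcodes had at least 250 CPM of Mdm2, Psrc1, Sesn2, Gtse1 and Ccng1 together, genes that the stress-activated transcription factor p53 can induce. They numbered 279, 120 and 221. A further 85, 21 and 64 nuclei met both rules and stayed out of the fits, and the rest numbered 2224, 2555 and 3252. The selecting genes define the groups and are no result, and the members themselves were chosen by their symbols.

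Hspa8 barcodes were shallow, with medians of 3179, 2295 and 4599.5 UMIs against 8962, 20853 and 14967 in the rest. A single Hspa8 UMI sufficed to select 2, 13 and 0 of them. Medians of p53 target barcodes were 7168, 11589.5 and 11402 UMIs, and 57, 22 and 10 rested on 1 UMI of the selecting genes. Markers of neurons in general summed to 1692, 3217 and 1683 CPM in Hspa8 barcodes, 3029, 3300 and 3022 CPM in p53 target barcodes and 4407, 4729 and 5008 CPM in the rest. Endothelial markers, of which 5 of 5 were detected in Hspa8 barcodes and 4 of 5 (not Cldn5) in p53 target barcodes, summed to 97.9 to 210 CPM, 152 to 220 CPM and, in the rest, 46.4 to 60.3 CPM. Markers of cortical layer 5 neurons, 6 of 6 detected in each group, summed to 516, 790 and 403 CPM in Hspa8 barcodes, 961, 1002 and 1035 CPM in p53 target barcodes and 1266, 1489 and 1552 CPM in the rest. Hypothalamic markers, 5 of 6 detected in Hspa8 barcodes (Otp at 0) and 6 of 6 in the others, summed to 472, 752 and 358 CPM, 233, 288 and 134 CPM, and 152, 165 and 104.2 CPM. Pericyte or fibroblast markers, 6 of 6 detected in each group, summed to 35.1, 6.99 and 181 CPM in Hspa8 barcodes, 14.1, 14.5 and 19.0 CPM in p53 target barcodes and 2.84, 2.01 and 2.27 CPM in the rest. In Hspa8 barcodes against the rest, red nucleus markers (3 of 4 detected, Pou4f2 at 0) were at 86.4 to 213 against 17.4 to 26.1 CPM, inhibitory markers (4 of 4) at 28.0 to 54.0 against 4.55 to 9.49 CPM, and oligodendrocyte precursor markers (4 of 5, Olig2 at 0) at 3.50 to 32.9 against 1.16 to 2.22 CPM. In the fit below, markers of a list did not always move together in Hspa8 barcodes. Of 5 tested neuron markers, 4 were called lower and 1 higher, and of 6 layer 5 markers 3 were lower. Called higher were 3 of 4 tested endothelial, 2 of 4 hypothalamic and 2 of 2 pericyte or fibroblast markers. So were 1 of 2 red nucleus and 1 of 1 inhibitory markers. No oligodendrocyte precursor marker was tested. Of all genes tested, 21.0% were called higher and 13.8% lower. The part of depth and of cell type in the differences below was not tested except where a value is given.

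Replication-type histone genes supply the nucleosome cores and linker histones that package newly copied DNA. They lie in clusters, lack introns for the most part, and are switched on as a cell enters S phase. Their mRNAs classically end in a stem-loop bound by Slbp and carry no poly(A) tail, while some members can also give longer, polyadenylated mRNAs in cells that no longer divide. Adult neurons do not divide, and libraries primed on poly(A) are known to capture tailless mRNAs poorly.

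Of the 67 members, 54 lie on chromosome 13 between 21715763 and 23934851, 10 on chromosome 3, 2 on chromosome 11 and 1 on chromosome 6 (GRCm38, GENCODE M21). The annotated transcripts of 44 members hold a match to the stem-loop, searched as the stem GGNNCT, the loop TTTN and the stem AGNNCC in a row on the transcript strand. The commonest forms are shown because they are the end signal that sets these mRNAs apart, with the 4 bases of the loop in capitals.
H1, H2A, H2B and H3 form (26 members, Hist1h2bm and Hist1h2bf among them): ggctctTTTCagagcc
H4 form (7 members): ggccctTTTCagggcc
Form of Hist1h4i and Hist2h4: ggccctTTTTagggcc
Form of Hist1h2bb and 5 others: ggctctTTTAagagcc

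The H2B genes also resemble each other so closely that reads can fit several of them. The last 60 coding bases, positions 322 to 381 of the coding sequence counted from the start codon, are shown for the 5 H2B genes that differed most between groups and for the other 2 abundant ones, with capitals where a base differs from Hist1h2bm.
Hist1h2bm: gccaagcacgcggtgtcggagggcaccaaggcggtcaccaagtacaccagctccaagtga
Hist1h2bb: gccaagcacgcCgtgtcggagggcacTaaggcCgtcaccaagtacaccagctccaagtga
Hist2h2be: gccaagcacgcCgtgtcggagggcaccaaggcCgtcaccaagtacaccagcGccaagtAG
Hist1h2bf: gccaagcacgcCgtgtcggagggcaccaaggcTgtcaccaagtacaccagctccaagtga
Hist1h2bc: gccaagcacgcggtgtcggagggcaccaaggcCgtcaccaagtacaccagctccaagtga
Hist1h2be: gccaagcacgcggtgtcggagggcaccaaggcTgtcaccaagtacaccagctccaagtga
Hist3h2ba: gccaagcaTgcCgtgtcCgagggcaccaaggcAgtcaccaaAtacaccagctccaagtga
Over the whole coding sequence, Hist1h2bm differs from Hist1h2bc at 8 of 381 positions, from Hist1h2be at 9 and from Hist2h2be at 49. Of the coding stretches of 90 bases, Hist1h2bc shares 94.9% exactly with another H2B gene, Hist1h2bf 64.0%, Hist1h2bb 49.3%, Hist1h2bm 13.0% and Hist2h2be none. These shares cover coding sequence only, and where the reads lay was not measured, so they do not give the size of any error. Values of single H2B genes are uncertain, since the sources used here do not say how reads were assigned among copies. The table has 32285 rows, all mouse genes, so it has no row for a tracer. Some nuclear tracers carry a fluorescent protein fused to H2B. The sources used here do not say whether this one did, and UMIs from such a transcript could not be told apart from those of mouse H2B genes.

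The kept nuclei held 18283 histone UMIs. At least 1 UMI was counted for 62 members and at least 100 for 21. Hist2h2aa2, Hist1h2ao, Hist1h3b, Hist1h2ba and Hist1h2aa were at 0. By counting error alone, this allows a level of up to 0.0192 CPM (3 counts over all kept UMIs). Reads shared with other gene copies could add to it, and how they were counted is not stated. H2B genes took 65.8% of the histone UMIs, H4 15.9%, H2A 10.1%, H1 6.48% and H3 1.79%. H3 was thus the class with the fewest UMIs although it has 12 genes, and none of them reached 100 UMIs.

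In the rest, histone RNA was sparse and alike in the 3 libraries, at 78.3, 72.6 and 69.3 CPM summed over the members. The most UMIs belonged to Hist1h2be, an H2B gene, with 12.5, 11.4 and 11.3 CPM, followed by Hist3h2ba, another H2B gene, with 5.22, 9.44 and 7.75 CPM. Hist3h2a, an H2A gene, had 4.32, 7.25 and 7.94 CPM. These members share an annotated transcript that runs on past the stem-loop, by 1861, 169 and 1643 bases. In all, 22 members have a transcript that extends more than 100 bases past it, and they held 66.1% of the histone UMIs of the rest. The 22 members whose transcripts end within 100 bases held 20.6%, and the 23 with no match held 13.3%. By library, members with a transcript that runs on held 50.1%, 71.2% and 67.6% in the rest. In Hspa8 barcodes, described next, they held 2.64%, 49.1% and 7.12%. Members whose transcripts end within 100 bases held 36.2%, 15.8% and 18.9% in the rest and 75.1%, 38.9% and 73.1% in Hspa8 barcodes. Members with no match held 13.7%, 13.005% and 13.5% in the rest and 22.3%, 12.04% and 19.8% in Hspa8 barcodes. Among them are Hist2h2be and Hist1h2bc, whose longest annotated transcripts have 2620 and 1156 bases. UMIs were counted per gene, so the transcript form they came from was not measured. Hist1h2be spans a long locus that overlaps Hist1h1e on the same strand, and Hist3h2a overlaps 2 other genes, so their counts may be shared.

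Hspa8 barcodes had far more histone RNA than the rest in replicates 1 and 3 and a smaller excess in replicate 2. The summed level was 6135, 378 and 2139 CPM, which was 78.4, 5.20 and 30.9 times that of the rest in the same library. Most of it was H2B, at 5971, 227 and 1987 CPM. H2B genes made up 97.3%, 60.2% and 92.9% of the histone UMIs of these barcodes against 66.3%, 45.05% and 52.0% in the rest. The other classes were higher by less, H4 by 7.20, 5.45 and 4.99 times, H1 by 5.89, 2.82 and 3.94 times and H2A by 4.80, 2.36 and 2.66 times. H3 rested on 3, 1 and 7 UMIs. Barcodes that met both rules had 5866, 647 and 3300 CPM of histone RNA, in the same order of libraries.

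**Figure D1:**
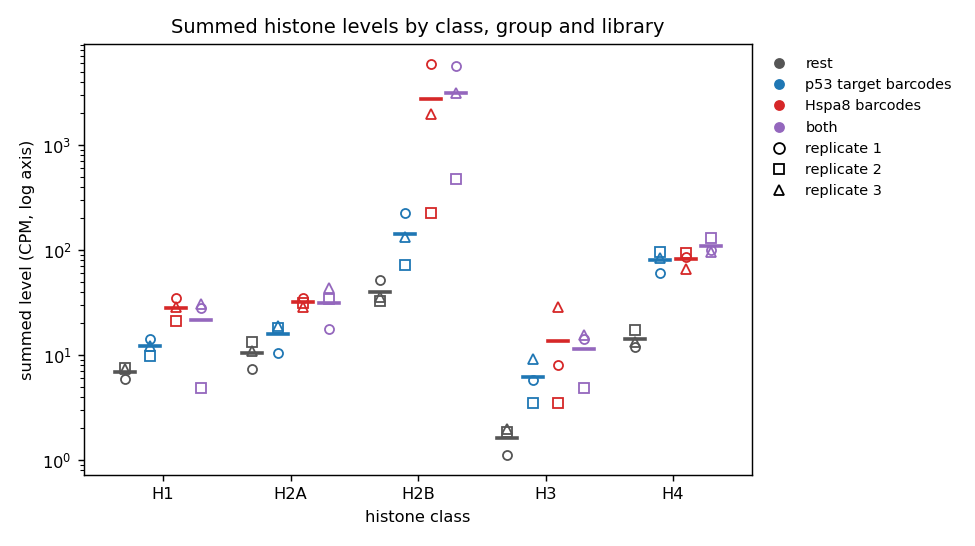
Summed level of each histone class (CPM, log axis) in the rest, p53 target barcodes, Hspa8 barcodes and barcodes in both groups; symbols are the 3 libraries and bars their mean. The H2B level of Hspa8 barcodes runs from 227 CPM in replicate 2 to 5971 CPM in replicate 1, while H4 lies between 60.003 and 95.9 CPM in p53 target barcodes and between 65.8 and 94.4 CPM in Hspa8 barcodes, against 12.002 to 17.3 CPM in the rest.

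The H2B excess came from 5 genes, Hist1h2bm, Hist1h2bb, Hist2h2be, Hist1h2bf and Hist1h2bc, a set named here after its values were seen. Hist1h2bm, an H2B gene at chromosome 13, 21722044 to 21722567, was at 2176, 59.5 and 736 CPM in Hspa8 barcodes and at 11.7, 2.43 and 4.31 CPM in the rest. Hist1h2bb, at chromosome 13, 23746734 to 23747241, was at 1549, 35.0 and 498 CPM against 8.10, 1.75 and 3.29 CPM. Both were lowest in replicate 2 in either group, and the groups did not overlap. Of all genes tested, 38.2% had each Hspa8 library above each library of the rest. Hist2h2be, an H2B gene on chromosome 3 at 96221119 to 96223738, was at 993, 20.98 and 292 CPM against 6.12, 1.77 and 2.50 CPM. Hist1h2bf, on chromosome 13 at 23573736 to 23574196, was at 837, 31.5 and 296 CPM against 4.89, 0.967 and 1.92 CPM. Hist1h2bc, on chromosome 13 at 23684199 to 23692908, was at 359, 17.5 and 119 CPM against 2.22, 3.38 and 2.97 CPM. The other 62 members together were at 221, 213 and 197 CPM in Hspa8 barcodes and 45.3, 62.3 and 54.4 CPM in the rest, so they varied little between libraries.

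**Figure D2:**
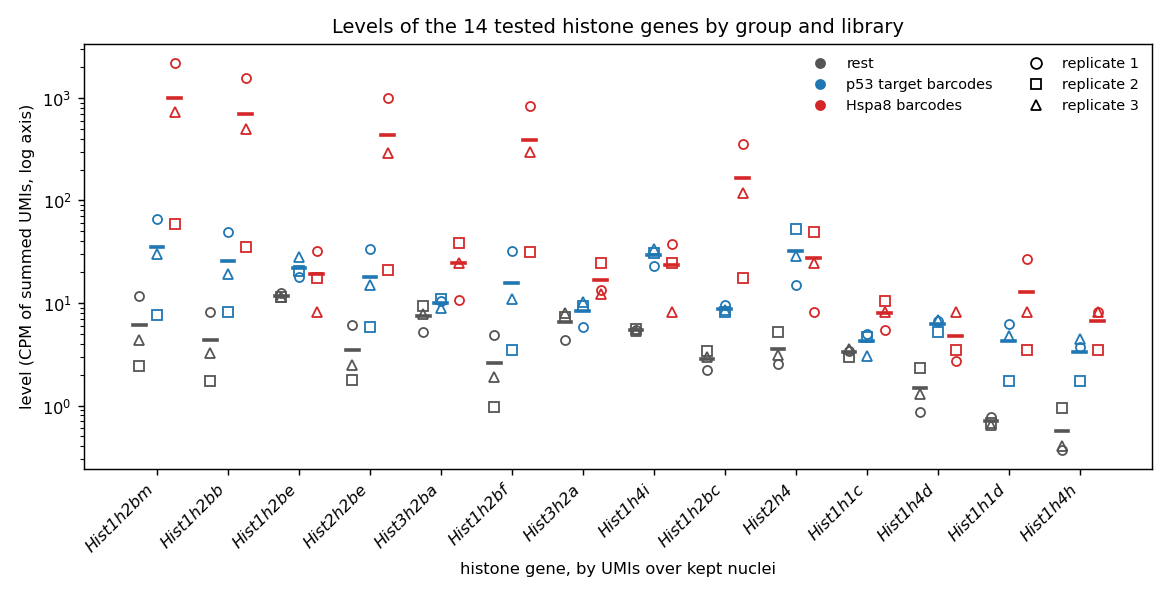
Level (CPM, log axis) of the 14 members with enough UMIs to be tested, in the rest, p53 target barcodes and Hspa8 barcodes; symbols are the 3 libraries and bars their mean. The 5 leading H2B genes stand out in Hspa8 barcodes of replicates 1 and 3, where Hist1h2bm reaches 2176 and 736 CPM, and replicate 2 lies far below at 59.5 CPM.

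The test used UMIs summed per library and group, fitted across 14788 genes with the quasi-likelihood test of edgeR and the library as a block. Calls needed a Benjamini-Hochberg adjusted p under 0.05 and a change of 1 log2 unit or more in either direction. Only 14 of the 67 members had enough UMIs to be tested. Against the rest, 9 of these 14 were higher in Hspa8 barcodes and 0 were lower, where 21.0% of all genes tested were called higher and 13.8% lower. Unadjusted, 10 members were higher and 0 lower at p under 0.05, and DESeq2 called 10 higher and 0 lower. A member could pass the filter on low counts through the group where it was high. Hist1h1d and Hist1h4h did so with 101 and 94 UMIs in the rest, while Hist1h2ap with 232 did not pass. Of the 9 members called in edgeR, only Hist1h4i was high enough in the rest alone to pass. The 9 of 14 and the median below thus favour members that were high in the groups. With no such filter, 13 of 62 members were called higher, beside 14.6% of all genes. The median log2 fold change of the 14 was 2.53, beside 0.0059 over all genes. Since the members were proposed with results of these data known, these counts describe them and are no independent evidence.

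Among the called members, the log2 fold change was 6.19 (SE 0.36) for Hist1h2bf, 6.12 (SE 0.47) for Hist1h2bm, 6.12 (SE 0.48) for Hist1h2bb, 5.78 (SE 0.50) for Hist2h2be and 4.90 (SE 0.62) for Hist1h2bc. The largest of their 5 adjusted p-values was 0.00022. These 5 stayed called in each of the 14 alternatives that gave a value, at 3.55 to 7.01. The remaining called members were Hist2h4 and Hist1h4i, which encode H4, at 2.17 (SE 0.41, adjusted p = 0.0018) and 1.55 (SE 0.44, adjusted p = 0.014), with Hist1h1d at 3.44 (SE 0.66) and Hist1h4h at 2.90 (SE 0.91). They rest on few UMIs: Hist2h4 had 3, 14 and 6 in Hspa8 barcodes, Hist1h4i 14, 7 and 2, Hist1h1d 10, 1 and 2, and Hist1h4h 3, 1 and 2. Without replicate 1, Hist1h4i, Hist1h1d and Hist1h4h were no longer called (adjusted p = 0.211, 0.155 and 0.194). In that fit 6 of 15 tested members were called higher, beside 1710 of 14568 genes. Without replicate 2, Hist2h4 and Hist1h4i were at 1.51 and 1.34 and did not pass (adjusted p = 0.0595 and 0.082).

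Not called were Hist3h2ba (log2 fold change 1.02, SE 0.39, adjusted p = 0.053), Hist3h2a (0.76, SE 0.40, adjusted p = 0.14), Hist1h4d (1.00, SE 0.84, adjusted p = 0.35), Hist1h1c (0.58, SE 0.58, adjusted p = 0.44) and Hist1h2be (0.16, SE 0.42, adjusted p = 0.79). Hist1h2be, first by UMIs in the rest, had 12, 5 and 2 UMIs in Hspa8 barcodes. Its coding sequence differs from that of Hist1h2bm at 9 of 381 positions. Among nuclei with at least 500 CPM of the cortical markers Nfib and Tox, 5 of 12 tested members were called higher, beside 945 of 13525 genes. Hist2h4 was there at a log2 fold change of 0.65 (adjusted p = 0.72). That fit had no Hspa8 sum of replicate 3, which held fewer than 20 such nuclei.

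The UMIs of the 5 H2B genes fell into like proportions in the groups of replicate 1 and in Hspa8 barcodes of replicate 3, and into others in the rest of replicate 2. In Hspa8 barcodes of replicate 1, Hist1h2bm took 36.8% of their 2191 UMIs, Hist1h2bb 26.2%, Hist2h2be 16.8%, Hist1h2bf 14.1% and Hist1h2bc 6.07%. In the rest of replicate 1, with 803 UMIs, the shares were 35.4%, 24.5%, 18.6%, 14.8% and 6.72%. Over the rest, p53 target, Hspa8 and both-rule barcodes of replicate 1, the share of Hist1h2bm ranged from 34.8% to 36.8%. Hist1h2bc took 32.8% and 19.8% in the rest of replicates 2 and 3, against 10.6% and 6.14% in their Hspa8 barcodes. The other shares in the rest of replicate 2 were 23.6% for Hist1h2bm, 17.0% for Hist1h2bb, 17.2% for Hist2h2be and 9.38% for Hist1h2bf. In p53 target barcodes of replicate 2, Hist1h2bc took 24.6% and Hist1h2bm 22.8%. Replicate 2 had 47 UMIs of the 5 genes in Hspa8 barcodes and 57 in p53 target barcodes.

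**Figure D3:**
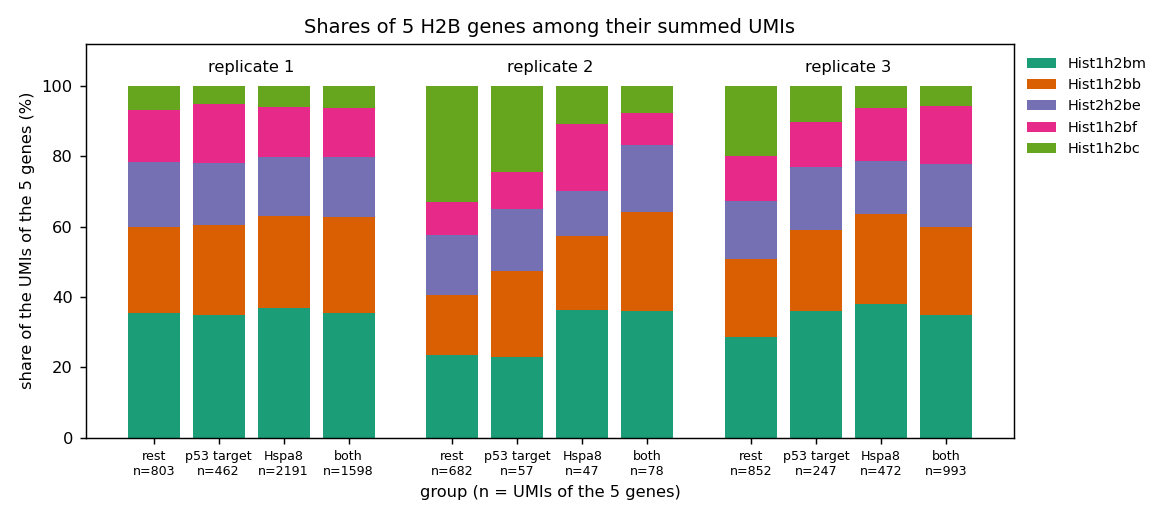
Share of each of 5 H2B genes in their summed UMIs (%), by group and library, with the number of UMIs under each bar. The 4 bars of replicate 1 are nearly alike, with Hist1h2bm between 34.8% and 36.8%, and Hist1h2bc takes 32.8% in the rest of replicate 2.

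The 5 genes were also concentrated in few nuclei. They reached 1000 CPM together in 246 of 9027 kept nuclei, of which 84 were Hspa8 barcodes, 126 met both rules, 15 were p53 target barcodes and 21 belonged to the rest. Of the 246, 163 came from replicate 1, 78 from replicate 3 and 5 from replicate 2. All 5 genes were detected together in 25 of 91, 1 of 73 and 8 of 42 Hspa8 barcodes. None of the 5 was detected in 8, 66 and 11 of them. In replicate 2, 1 nucleus held 37 of the 47 UMIs, whereas the nucleus with the most held 297 of 2191 in replicate 1 and 201 of 472 in replicate 3. At least 1 histone UMI was found in 94.5%, 32.9% and 85.7% of Hspa8 barcodes, and in 46.3%, 72.8% and 61.1% of the rest, which were deeper. With every nucleus thinned to 3000 UMIs, the shares were 91.8%, 33.3% and 67.6% of 49, 24 and 37 Hspa8 barcodes and 22.7%, 20.9% and 19.2% of the rest. Thinning left out 42, 49 and 5 Hspa8 barcodes that were shallower.

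Levels differed with Hspa8 below the threshold too. All kept nuclei with at least 5000 UMIs were read, whatever their p53 target level. The 5 H2B genes summed to 22.5, 9.75 and 13.0 CPM under 100 CPM of Hspa8 and to 50.2, 12.5 and 23.3 CPM between 100 and 300 CPM. Between 300 and 600 CPM they were at 387, 11.3 and 98.9 CPM, and between 600 and 1200 CPM at 3292, 221 and 583 CPM, over 20, 22 and 22 nuclei. Replicate 2 thus stayed near its lowest level up to 600 CPM of Hspa8, where replicates 1 and 3 were already higher. Nuclei of any depth and p53 target level were read on both sides of the threshold. Just outside, at 480 to 600 CPM of Hspa8, 38, 35 and 25 nuclei had 1032, 153 and 527 CPM of histone RNA. Just inside, at 600 to 720 CPM, 21, 35 and 15 nuclei had 3094, 232 and 680 CPM.

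The p53 target barcodes leave out those that met both rules, which had 5866, 647 and 3300 CPM of histone RNA. In the p53 target barcodes that remain, the histone excess was smaller and more even over the libraries. H4 genes were higher by about the same ratio in each library. The summed level was 315, 199 and 258 CPM, or 4.02, 2.74 and 3.72 times the rest. H4 genes were at 60.003, 95.9 and 83.3 CPM against 12.002, 17.3 and 13.2 CPM, a ratio of 5.00, 5.54 and 6.31. H2B genes were higher by 4.33, 2.20 and 3.71 times, H1 by 2.36, 1.33 and 1.67 times and H2A by 1.41, 1.35 and 1.76 times. H3 was higher by 5.22, 1.89 and 4.70 times, on 14, 6 and 27 UMIs. H2B genes held 71.4%, 36.2% and 52.0% of the histone UMIs. For H4, replicate 2 had the highest value of the 3 libraries, and for H2B it had the lowest.

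Hist2h4, an H4 gene on chromosome 3 at 96261682 to 96263311, was at 14.9, 52.9 and 28.5 CPM in p53 target barcodes and at 2.55, 5.17 and 3.08 CPM in the rest. Hist1h4i, an H4 gene on chromosome 13 at 22040636 to 22041362, was at 22.8, 30.8 and 34.0 CPM against 5.43, 5.52 and 5.34 CPM. For both, every library of the group lay above every library of the rest, as it did for 41.6% of all genes tested. Hist1h4d, also H4, was at 6.62, 5.23 and 6.80 CPM against 0.863, 2.30 and 1.28 CPM. Hist1h4h, another H4 gene, was at 3.72, 1.74 and 4.42 CPM against 0.370, 0.937 and 0.404 CPM. The linker histone gene Hist1h1d was at 6.21, 1.74 and 4.76 CPM against 0.781, 0.680 and 0.650 CPM. None of these 3 overlapped between the groups, though the UMIs were few, with 9, 3 and 13 for Hist1h4h in p53 target barcodes.

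In the same fit, 9 of the 14 tested members were higher in p53 target barcodes than in the rest and 0 were lower, where 13.9% of all genes tested were called higher and 5.46% lower. Unadjusted, 9 were higher and 0 lower at p under 0.05, and DESeq2 called 9 higher and 0 lower. Here too, of the 9 members called in edgeR, only Hist1h4i was high enough in the rest alone to pass the filter on low counts. With no such filter, 14 of 62 members were called higher, beside 10.3% of all genes. The median log2 fold change was 1.85 over the 14 members and -0.02 over all genes. The called H4 genes were Hist2h4 at 2.71 (SE 0.26, adjusted p = 6e-05), Hist1h4h at 2.26 (SE 0.55, adjusted p = 0.0097), Hist1h4i at 2.06 (SE 0.27, adjusted p = 0.00036) and Hist1h4d at 1.80 (SE 0.41, adjusted p = 0.0066). Hist1h1d was called at 2.12 (SE 0.48, adjusted p = 0.0069). The called H2B genes were Hist1h2bf, Hist1h2bb, Hist1h2bm and Hist2h2be, at 1.99, 1.98, 1.90 and 1.80. Hist1h2bc did not pass at 1.08 (SE 0.62, adjusted p = 0.20), nor did Hist1h2be at 0.55 (SE 0.26, adjusted p = 0.13). Hist3h2ba, Hist3h2a and Hist1h1c were at 0.10, 0.016 and -0.048, with adjusted p-values of 0.81 or more.

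These calls depended on the libraries to different degrees. Without replicate 3, 2 of 14 tested members were called higher, Hist2h4 and Hist1h4i, beside 803 of 14635 genes. These 2 stayed called in each of the 15 alternatives run on them, at 2.23 to 3.11 and 1.90 to 2.56. Without replicate 1, 6 of 15 were called, beside 1459 of 14568 genes, and without replicate 2, 11 of 18, beside 2718 of 16827. Without the library as a block, 5 of 14 were called, beside 1890 of 14788 genes. Hist1h2bm, Hist1h2bb, Hist2h2be and Hist1h2bf were then lost (adjusted p from 0.102 to 0.131). With barcodes that met both rules counted as p53 target barcodes, 11 of 16 tested members were called higher, beside 2875 of 15775 genes. Hist1h2bc was then at 2.42 (adjusted p = 0.0061 in edgeR). The UMIs of Hist1h2bm in p53 target barcodes were 161, 13 and 89, most of them in the libraries where Hspa8 barcodes also had most.

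The H4 level followed the level of the p53 targets themselves. All kept nuclei with at least 5000 UMIs were read, Hspa8 barcodes and barcodes that met both rules included. H4 genes were at 8.15, 15.2 and 11.6 CPM where the selecting targets summed to under 50 CPM. They were at 10.9, 17.6 and 12.4 CPM from 50 to 125 CPM, and at 25.0, 29.9 and 23.0 CPM from 125 to 250 CPM. From 250 to 500 CPM they were at 62.1, 80.3 and 62.3 CPM, and from 500 CPM at 81.5, 166 and 121 CPM over 62, 24 and 96 nuclei. Each library was thus higher at each step. The 5 H2B genes were also higher at each step in replicates 2 and 3, but in replicate 1 they went from 258 to 140 CPM at the last step. In replicate 3 the last step held 451 UMIs of these genes, while all p53 target barcodes held 247. Part of that step thus came from barcodes that met both rules, and their part in the H2B steps was not tested. Nuclei just outside the threshold, at 200 to 250 CPM of the targets, numbered 99, 80 and 96 at any depth and Hspa8 level. They had 389, 160 and 168 CPM of histone RNA. Just inside, up to 300 CPM, 61, 42 and 60 such nuclei had 450, 138 and 186 CPM.

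**Figure D4:**
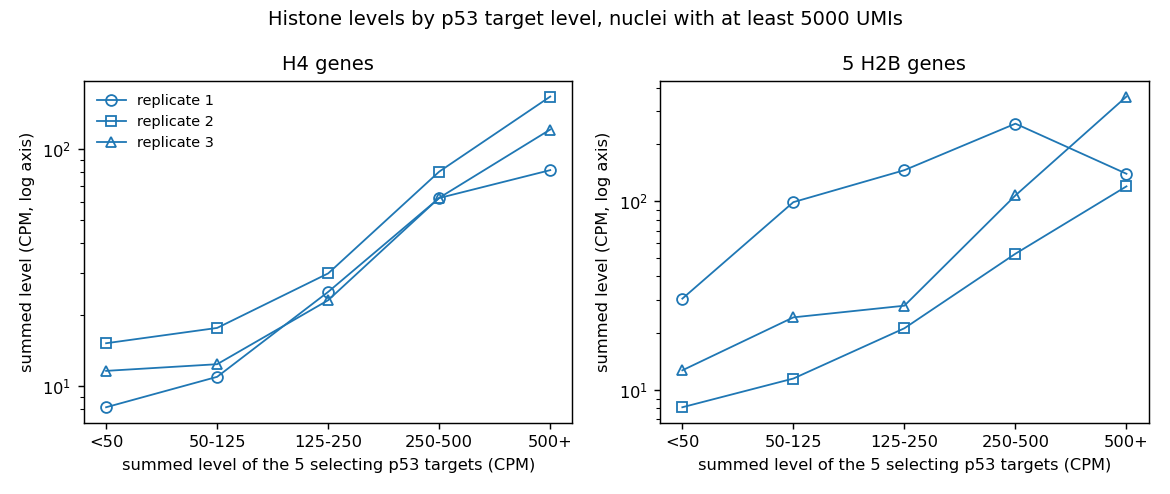
Summed level (CPM, log axis) of the 13 H4 genes (left) and of 5 H2B genes (right) by the summed level of the 5 selecting p53 targets. All kept nuclei with at least 5000 UMIs are included, also Hspa8 barcodes and barcodes in both groups, and lines are the 3 libraries. H4 is higher at each step in each library, from 8.15 to 81.5 CPM in replicate 1, while the H2B genes of replicate 1 go from 258 to 140 CPM at the last step.

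Compared directly, p53 target barcodes had less of 5 members than Hspa8 barcodes and more of none, where 9.20% of all genes tested were called lower and 7.39% higher. The log2 fold change was -4.21 (SE 0.44) for Hist1h2bm, -4.20 (SE 0.35) for Hist1h2bf, -4.13 (SE 0.46) for Hist1h2bb, -3.98 (SE 0.48) for Hist2h2be and -3.82 (SE 0.64) for Hist1h2bc. The largest of their adjusted p-values in edgeR was 0.0034. Unadjusted, 6 members were lower and 0 higher at p under 0.05, and DESeq2 called 5 lower and 0 higher. The H4 genes did not pass. Hist2h4 was at 0.54 (SE 0.37, adjusted p = 0.31) and Hist1h4i at 0.51 (SE 0.41, adjusted p = 0.40). On the Hspa8 side these values rest on 3, 14 and 6 UMIs of Hist2h4 and 14, 7 and 2 of Hist1h4i, too few to show equal levels. Without replicate 3, none of the 5 was called, at log2 fold changes of -4.15 to -3.92 and adjusted p from 0.059 to 0.085. Of the 14635 genes tested in that fit, 7 were called lower.

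Depth and histone level went together within the rest. The summed level over the 3 libraries was 348 ± 260 CPM (SD, n = 3) in nuclei under 4000 UMIs, 111 ± 4.63 CPM from 4000 to 8000, 84.1 ± 10.1 CPM from 8000 to 16000, 64.7 ± 11.1 CPM from 16000 to 32000 and 52.0 ± 11.3 CPM from 32000. The shallowest nuclei differed widely between libraries, at 254, 148 and 641 CPM. A slope over these 5 bins was fitted in edgeR to the 19 members with enough UMIs, and called at 0.25 log2 units per bin or more. It was negative for 6 and positive for 0, where 22.1% of all genes tested were called negative and 14.1% positive. Unadjusted, 9 were lower and 1 higher at p under 0.05, and DESeq2 called 7 and 0. Markers of cell types also followed depth: the slope was positive for 6 of 6 tested markers of cortical layer 5, and negative for 6 of 6 hypothalamic, 5 of 5 hindbrain glutamatergic, 4 of 4 inhibitory and 5 of 5 monoaminergic markers.

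The called slopes per bin were -0.81 (SE 0.19) for Hist1h2bb, -0.72 (SE 0.08) for Hist1h1c, -0.61 (SE 0.06) for Hist3h2ba, -0.53 (SE 0.16) for Hist1h2bm, -0.51 (SE 0.20) for Hist1h2bf and -0.45 (SE 0.14) for Hist2h2be. Hist1h1c encodes a linker histone. Without replicate 1, Hist1h2bm, Hist2h2be and Hist1h2bf were not called, which left 3 of 19 tested members, beside 3445 of 17282 genes. The slope was 0.03 (SE 0.11) for Hist2h4, -0.21 (SE 0.09) for Hist1h4i and 0.14 (SE 0.07) for Hist1h2be, and none of these passed.

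Within bins of equal depth, Hspa8 barcodes of replicates 1 and 3 kept an excess, and those of replicate 2 did so only above 8000 UMIs, in 8 nuclei. Under 4000 UMIs, their summed histone level was 27.7, 1.24 and 6.36 times that of the rest of the same bin and library. From 4000 to 8000 UMIs, it was 24.9, 0.53 and 9.48 times. The replicate 2 ratios rest on 20 and 4 histone UMIs, and its 8 deeper Hspa8 barcodes held 58 and 26 more, at 958 CPM from 8000 to 16000 UMIs and 523 CPM above. A single nucleus held 38 of those 58 UMIs, and the other 5 nuclei of that bin were at 389 CPM. With library and depth bin together as a block, 5 of 10 tested members were called higher in Hspa8 barcodes (12.5% of all genes were), the 5 H2B genes, at log2 fold changes of 3.65 to 4.90, while Hist2h4 (1.89, adjusted p = 0.118) and Hist1h4i (1.17, adjusted p = 0.215) did not pass. For p53 target barcodes, the H4 ratio was 2.19 to 8.37 in the 10 library and bin pairs from 4000 UMIs that held at least 10 such nuclei. Under 4000 UMIs it was 0.56, 0.57 and 0, on 3, 1 and 0 H4 UMIs. With that block, 7 of 10 tested members were called higher in p53 target barcodes, beside 8.92% of all genes.

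**Figure D5:**
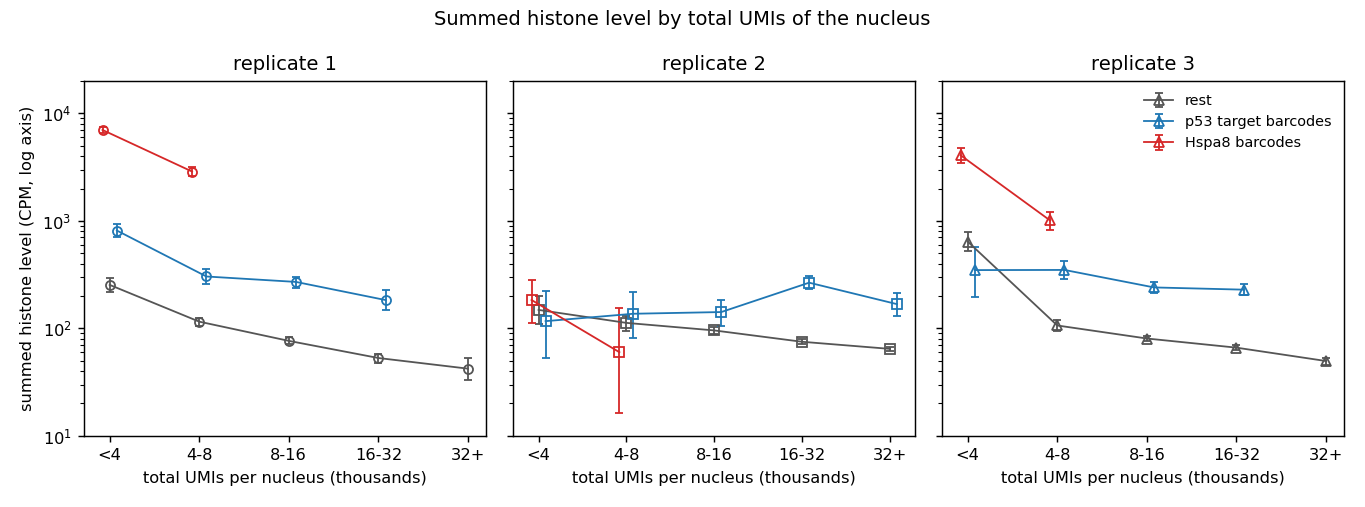
Summed histone level (CPM, log axis) by total UMIs of the nucleus in each library; bars are exact Poisson 95% intervals that cover counting error only, and bins with fewer than 10 nuclei are left out. The rest goes down from bin to bin in each library, and Hspa8 barcodes of replicate 2 lie within the counting error of the rest.

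RefSeq promoters (GRCm38.p6, 250 bases before to 50 after the start) were matched for 61 members by Ensembl gene ID, or by symbol where that gave none. Hist2h4, Hist2h2be and Hist1h2bc were among the members without a match, so their promoters were not searched. On either strand, CCAAT was found in 85.2% of them against 37.4% of all promoters. It was present in 16 of 16 matched H2B genes and 3 of 12 H4 genes. TATAAA was found in 57.4% against 13.6%. ATTTGCA, the octamer known from H2B promoters, was found in 13, of which 6 were H2B and 7 H2A genes, or 21.3% against 4.04%. GAANNTTC, the core of heat shock elements, was found in 14.8% against 7.89%. Of the leading H2B genes searched, Hist1h2bf had it and Hist1h2bm and Hist1h2bb did not. The p53 half-site was found in 8.20% against 8.36%, with 3 of the 5 matches in H4 genes, Hist1h4i, Hist1h4k and Hist1h4j. Hist1h4d and Hist1h4h, called higher in p53 target barcodes, had none. Some H2A and H2B genes lie head to head and share most of their window, so a match can count for both. Hist1h2bf with Hist1h2ad, Hist1h2ae with Hist1h2bg and Hist1h2bj with Hist1h2ag did so for GAANNTTC. The shares are thus of members and not of separate windows. These matches are letters in a window and show no binding. The 250 bases before the start are shown for Hist1h2bm, which led the H2B genes by UMIs over all kept nuclei, and for Hist1h4i. In p53 target barcodes, Hist1h4i had the smallest adjusted p of the tested members after Hist2h4. Capitals mark CCAAT in either direction and ATTTGCA in Hist1h2bm, and TATAAA in Hist1h4i.
Hist1h2bm, chr13:21721794-21722043, plus strand: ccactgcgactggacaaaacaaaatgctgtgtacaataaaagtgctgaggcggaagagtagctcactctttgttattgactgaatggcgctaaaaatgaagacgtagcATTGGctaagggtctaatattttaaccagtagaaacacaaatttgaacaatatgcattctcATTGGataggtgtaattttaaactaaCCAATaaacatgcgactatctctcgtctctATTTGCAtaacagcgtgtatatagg
Hist1h4i, chr13:22041363-22041612, minus strand: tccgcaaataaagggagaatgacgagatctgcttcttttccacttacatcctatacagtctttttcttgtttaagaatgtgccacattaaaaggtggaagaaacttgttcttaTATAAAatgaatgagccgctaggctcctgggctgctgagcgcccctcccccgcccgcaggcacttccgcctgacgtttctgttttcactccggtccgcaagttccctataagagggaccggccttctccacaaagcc

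Genes that act on histone mRNA and histone protein were read beside the members. The shares of all genes tested that were called, against which each list is read, were 21.0% higher and 13.8% lower in Hspa8 barcodes and 13.9% higher and 5.46% lower in p53 target barcodes. Of 16 tested genes of histone mRNA 3′ end processing and decay, 4 were higher and 0 lower in Hspa8 barcodes, a share near that of all genes, with a median log2 fold change of 0.18. Slbp, which binds the stem-loop, was at 116 ± 68.8 CPM (SD, n = 3) against 20.4 ± 3.15 CPM in the rest, a log2 fold change of 1.74. The others were Casp8ap2 at 1.61, Nelfe at 1.23 and Upf1, an RNA helicase of mRNA decay, at 1.04. Without replicate 3, these 3 were at 0.60, 1.41 and 0.85 and none passed (adjusted p from 0.115 to 0.244), while Slbp did. Without replicate 1, Nelfe and Upf1 did not pass (adjusted p = 0.399 and 0.0679). With library and depth bin as block, Casp8ap2, Nelfe and Upf1 did not pass (adjusted p = 0.165, 0.0507 and 0.0924), and among cortical marker nuclei they were at -0.248, -0.873 and -0.031. In p53 target barcodes, 2 of the 16 were higher, again near the share of all genes, Upf1 at 1.09 and Lsm10, a subunit of the processing particle, at 1.34, and neither passed without replicate 3 (adjusted p = 0.0753 and 0.133). Lsm10 did not pass without replicate 1 either (adjusted p = 0.149), and Upf1 was at 0.97 without replicate 2.

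Of 11 tested genes listed as replication-independent histones, 5 were higher and 0 lower in Hspa8 barcodes. They were H2afx, the variant phosphorylated at DNA breaks, at 3.21, H3f3b, which encodes H3.3, at 2.29, H2afy2 at 1.36, H2afz at 1.08 and H2afj at 1.05. H2afx and H3f3b passed with any 1 library left out. H2afz and H2afj lost the call without replicate 2 (adjusted p = 0.058 and 0.114), H2afy2 without replicate 3 (adjusted p = 0.088), and H2afy2 and H2afj without replicate 1 (adjusted p = 0.0806 and 0.0598). With library and depth bin as block, H2afz, H2afj and H2afy2 were at 0.25, 0.63 and 0.90 and did not pass (adjusted p = 0.415, 0.164 and 0.223). In p53 target barcodes, 1 of the 11 was higher, the centromeric variant Cenpa at 1.76, which did not pass without replicate 3 (adjusted p = 0.125). Of 20 tested histone chaperones, 6 were higher in Hspa8 barcodes, with Nasp at 1.67, and Atrx was lower at -1.40. Nasp was at 1.34 without replicate 3 (adjusted p = 0.0598). In p53 target barcodes, Nap1l4 alone was higher, at 1.19, and at 1.09 without replicate 3 (adjusted p = 0.0957).

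Genes of S phase and division were called in part. Of 16 tested, 8 were higher and 0 lower in Hspa8 barcodes, and 6 were higher and 2 lower in p53 target barcodes. Cenpf, a kinetochore gene, was at 389 ± 250 CPM (SD, n = 3) in Hspa8 barcodes, 173 ± 45.5 CPM in p53 target barcodes and 19.3 ± 7.40 CPM in the rest. The replication helicase genes Mcm6 and Mcm7 and the cyclin genes Ccna2 and Ccnb1 were called higher in both groups. Without replicate 3, Mcm6, Mcm7, Ccna2 and Ccnb1 were not called in p53 target barcodes (adjusted p from 0.0787 to 0.135), nor Mcm6, Mcm7 and Ccna2 in Hspa8 barcodes (adjusted p from 0.0657 to 0.0991). Without replicate 1, none of the 4 was called in Hspa8 barcodes (adjusted p from 0.0794 to 0.27), nor Mcm7 and Ccna2 in p53 target barcodes (adjusted p = 0.0645 and 0.061). Without replicate 2, Ccnb1 was not called in Hspa8 barcodes (adjusted p = 0.0928). With library and depth bin as block, Ccnb1 was not called in Hspa8 barcodes (adjusted p = 0.105), nor Mcm7 in p53 target barcodes (log2 fold change 0.96). Among cortical marker nuclei, Cenpf, Mcm7, Ccna2 and Ccnb1 were not called in Hspa8 barcodes (adjusted p = 0.201, 0.273, 0.057 and 0.328). They were at 1.17, 1.41, 3.42 and 1.66 there, and Ccnb1 was not called in p53 target barcodes either. In the main fit, the proliferation marker Mki67 was not called, with 2, 2 and 4 UMIs in Hspa8 barcodes and a log2 fold change of 0.08. Rrm2, the ribonucleotide reductase subunit of S phase, had 2, 1 and 1 UMIs in Hspa8 barcodes.

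Other p53 targets and heat shock genes were counted too, since the groups were made from genes of those pathways. Of 19 tested p53 targets outside the rule, 13 were higher and 1 lower in Hspa8 barcodes, and 11 were higher and 0 lower in p53 target barcodes. Cdkn1a, the cell cycle inhibitor p21, was at 3.53 and 3.89 on the log2 scale. Of 18 tested heat shock genes outside the rule, 9 were higher and 1 lower in Hspa8 barcodes, with Hspa1a at 6.62, and 1 was higher in p53 target barcodes. The p53 target group leaves out nuclei with high Hspa8, itself a chaperone gene, which bears on that count. With barcodes that met both rules counted in, Hspa1b, Hspa5, Hsp90aa1 and Hsp90ab1 were also called higher, at 3.98, 1.58, 1.15 and 1.095. Hspa1a had 161, 15 and 234 UMIs in Hspa8 barcodes of replicates 1, 2 and 3, so replicate 2 was the lowest for this inducible chaperone as it was for the H2B genes.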

How the data were processed

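The authors deposited raw UMI counts per gene and barcode for 3 single-nucleus libraries. The file headers name Cell Ranger 6.1.1 and the submitters' processing notes name Cell Ranger 7.0.1 with build mm10. Which made the counts, whether introns or strand were used and how reads shared by gene copies were counted is not stated in those sources, and this bears on intronless, near-identical histone genes. The deposited counts held 2710, 11094 and 3713 barcodes, with 27435221, 74287112 and 60490064 UMIs.

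Nuclei were selected and grouped as described above. Scrublet (Scanpy 1.11.5, expected rate 6%) marked 0.56%, 2.13% and 1.45% of kept nuclei as doublets, which stayed in except in an alternative. The libraries shared 3, 2 and 1 kept barcodes pairwise. UMIs were summed per library and group (42 to 3252 nuclei, 243085 to 66182674 UMIs) and fitted with edgeR 4.0.16 in R 4.3.3 (quasi-likelihood test, TMM, filterByExpr, library as block, 4 residual degrees of freedom). The block follows from the design, since the groups are parts of the same libraries. Sums of the rest per depth bin were fitted likewise (11 residual degrees of freedom). Standard errors were obtained as the ratio of the fold change on the log2 scale to the root of the F statistic. DESeq2 1.42.0 was an alternative. The fit was tested on simulated data. Annotation was GENCODE M21, and promoters came from RefSeq.

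Named were the 12 members with most UMIs, every called member, and up to 5 called genes per list by smallest p. Mki67, Rrm2 and the set of 5 H2B genes were chosen after their values were seen. The members, groups and lists were chosen with earlier results of these data known. Intervals and floors cover counting error only.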

Additional observations from a re-analysis of the deposited data

Results flagged for a closer look

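Histone RNA was also counted in barcodes that no comparison used because they had under 1000 genes or, in 1 case, too many mitochondrial UMIs. Their summed histone level was 3928 CPM over 31 barcodes of replicate 1, 263 CPM over 8325 barcodes of replicate 2 and 402 CPM over 134 barcodes of replicate 3, against 78.3, 72.6 and 69.3 CPM in the rest. In replicate 1, 99 of the 137 histone UMIs came from 4 barcodes. The 5 leading H2B genes made up 94.9%, 24.4% and 48.6% of the histone UMIs there, close to their 96.4%, 43.5% and 90.8% in Hspa8 barcodes only for replicate 1. Hspa8 itself was at 860, 1052 and 885 CPM in these barcodes. Oligodendrocyte markers, 6 of 6 detected, summed to 1634, 209 and 644 CPM there against 53.3, 59.96 and 67.9 CPM in the rest. The part of either in the histone level was not tested.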

How the results depend on the processing

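Of 691 recomputed values of single members, 639 stayed on their side of the call, 39 lost the call and 13 gained it. None of the 381 values of called members changed sign, while 32 of the 310 of uncalled members did: Hist3h2ba went from 1.02 to -0.62 and Hist3h2a from 0.76 to -1.14 in Hspa8 barcodes with at least 5 selecting UMIs, and Hist1h1c from 0.58 to -1.59 with at least 2000 genes per nucleus. Members higher in p53 target barcodes were 14 of 62 tested with no filter on low counts, beside 2955 of 28731 genes. They were 5 of 14 with no replicate block, beside 1890 of 14788 genes. Among nuclei with at least 5000 UMIs they were 16 of 25, beside 3088 of 18069 genes. With 1 library left out they ranged from 2 of 14 to 11 of 18, beside 803 of 14635 and 2718 of 16827 genes. More members were tested without the filter and at that depth. Higher in Hspa8 barcodes were 5 of 12 members among cortical marker nuclei and 5 of 10 with library and depth bin as block. Over all genes, 945 of 13525 and 1320 of 10575 were. With 1 library left out they were 6 of 15 to 10 of 18, beside 1710 of 14568 and 4068 of 16827 genes. Lower in p53 target than in Hspa8 barcodes were 0 of 14 members without replicate 3, beside 7 of 14635 genes. They were 5 of 15 without replicate 1 and 5 of 18 without replicate 2, beside 448 of 14568 and 1725 of 16827. Negative slopes ranged from 3 of 19 to 8 of 12 members with 1 library left out, beside 3445 of 17282 and 3849 of 15693 genes. A positive slope was called for 1 member with no replicate block, with at least 2000 genes per nucleus and over all kept nuclei. Over all genes, 1917, 2641 and 2367 positive slopes were called there. The replicate block changed no other count by over 1.5 times. Among cortical marker nuclei, Upf1, Casp8ap2 and Nelfe turned to log2 fold changes of -0.031, -0.248 and -0.873 in Hspa8 barcodes. The cause of these changes was not tested. The fits at 2000 genes per nucleus and at 5 selecting UMIs had no Hspa8 sum of replicate 2 (fewer than 20 nuclei). Thinning to 3000 UMIs took the mean share of nuclei with a histone UMI from 72.4% to 42.3% in p53 target barcodes and from 60.04% to 20.9% in the rest, as fewer UMIs must. The Hspa8 comparison was not run at 5000 UMIs, since fewer than 20 such barcodes were left in each library. Depth limits the 53 untested members and, in replicate 2, Hspa8 barcodes.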
